A study of Mus musculus with 8 samples.

Results

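Notch signalling was followed through 10 genes, taken by name from a table of 24015 genes: the receptors Notch1 and Notch4, the ligands Dll4, Jag1 and Jag2, and the target genes Hey1, Hey2, Heyl, Hes1 and Nrarp. All 10 were among the 13908 genes that had enough counts to be tested. RNA-Seq was carried out on the dorsal aorta region of mouse embryos at the E11.5 stage, the aorta-gonad-mesonephros (AGM) with its vitelline and umbilical arteries. The samples formed 4 groups of 2 libraries, each library made with SMARTSEQ2 from 100 sorted cells. Hematopoietic clusters were sorted as Ter119- VE-Cadherin+ Kit+ cells. Endothelium was sorted as VE-Cadherin+ cells that were negative for Ter119, Kit, CD41 and CD45. Each was taken from wild type embryos, labelled WT, and from embryos labelled Kitl null. The latter are called Sl/Sl here, after the Steel deletion that removes the gene for Kit ligand from every cell of the embryo, and both genotypes were on a C57BL/6 background. No other allele or treatment was named for any group. Cells came from single or pooled embryos of the same genotype. The study asked which transcripts depend on Kit ligand in the clusters, with the endothelium compared in the same way.

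A Notch receptor is cut when it binds a ligand on an adjacent cell, and its freed intracellular domain enters the nucleus. There it binds the DNA-binding protein RBPJ and a Mastermind co-activator, and switches on targets such as the Hes and Hey repressors. In the embryo the pathway sets arterial identity, and Notch1 is needed in the aortic endothelium for the first hematopoietic stem cells to form. Clusters bud from that endothelium, and Notch activity falls again as their cells mature.

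The 8 libraries held 8933236 to 13428214 counts on genes, with 12844 to 14309 genes detected. SMARTSEQ2 amplifies cDNA by PCR without molecular identifiers, so counting limits leave out the error of amplification. Kitl, the deleted gene, had 923 to 1250 counts in wild type endothelium against 2 to 6 in that of Sl/Sl. Wild type cluster libraries held 110 and 0 counts, and those of Sl/Sl 1 and 3, so this gene does not check the label of wild type clusters replicate 2, the library at 0. All 14 endothelial and all 14 hematopoietic markers were detected in every library. Ptprc, the gene for CD45, had 6 to 16 counts in endothelium and 1294 to 3908 in clusters. Kit, a sorting marker, stood at 11.6 to 16.0 RPKM in endothelium and 46.2 to 78.8 in clusters, and Itga2b, the gene for CD41, at 1.20 to 2.93 against 2.65 to 6.90. One cluster library stood apart: wild type clusters replicate 2 had 154 counts of Cdh5, the gene for VE-Cadherin used in the sort, against 659 to 2531 in the other cluster libraries, and the lowest sum of endothelial markers. The main values that rest on it are given with and without it.

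The promoters of 7 members were listed in RefSeq on the build GRCm38.p6, and those of Hey1, Heyl and Hes1 were not listed. Sequences are shown for Hey2, the member whose promoter held the core letters bound by RBPJ, TGGGAA, and for Nrarp, Dll4 and Jag1, which were higher in endothelium as Hey2 was but held no copy. Each run goes from 250 bases before the start site to 10 bases after it, 5′ to 3′ on the strand of the gene, and capitals mark TGGGAA or its reverse complement TTCCCA. The Hey2 run lies on the minus strand at chr10:30842774-30843033, Nrarp on the plus strand at chr2:25180508-25180767, Dll4 on the plus strand at chr2:119325534-119325793 and Jag1 on the minus strand at chr2:137116511-137116770.
Hey2: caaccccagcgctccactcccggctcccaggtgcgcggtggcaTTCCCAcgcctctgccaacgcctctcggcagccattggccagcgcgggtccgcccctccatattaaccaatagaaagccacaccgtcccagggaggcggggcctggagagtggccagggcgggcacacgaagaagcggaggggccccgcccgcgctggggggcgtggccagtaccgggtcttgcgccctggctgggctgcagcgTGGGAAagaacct
Nrarp: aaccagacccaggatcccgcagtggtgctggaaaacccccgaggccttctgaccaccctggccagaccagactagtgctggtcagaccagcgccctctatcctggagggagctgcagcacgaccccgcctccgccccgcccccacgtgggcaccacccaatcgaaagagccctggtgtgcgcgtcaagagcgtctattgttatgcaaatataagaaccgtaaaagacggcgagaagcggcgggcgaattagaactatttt
Dll4: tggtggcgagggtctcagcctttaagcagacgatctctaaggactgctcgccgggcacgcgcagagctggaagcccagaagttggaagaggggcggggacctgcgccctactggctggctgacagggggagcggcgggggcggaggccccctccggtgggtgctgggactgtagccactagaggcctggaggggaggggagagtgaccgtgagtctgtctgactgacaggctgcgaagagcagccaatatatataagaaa
Jag1: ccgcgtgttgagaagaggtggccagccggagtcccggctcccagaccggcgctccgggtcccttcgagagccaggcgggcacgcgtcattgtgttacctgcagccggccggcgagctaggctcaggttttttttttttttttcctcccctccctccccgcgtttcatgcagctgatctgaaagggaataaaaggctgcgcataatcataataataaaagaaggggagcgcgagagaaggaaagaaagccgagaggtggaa
The copies in Hey2 begin at position -3 on the strand of the gene and at -207 on the opposite strand, counted from the start site. Both are also copies of the longer form GTGGGAA, which contains the core. Searched on both strands in windows of 300 bases, TGGGAA stood in 25.6% of 32851 mouse promoters and at least 2 copies in 3.79%, while GTGGGAA stood in 6.38% and at least 2 copies in 0.256%. Of the 7 members listed, 1 held the core. A match is a description of the letters and not of a bound site.

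Levels per transcript length were compared first, as RPKM (counts per kilobase of exon, scaled to the library total). In endothelium of either genotype Jag1 was the highest member and Hey1 the next. In wild type endothelium the mean level was 167 ± 24 RPKM for Jag1 and 122 ± 22 for Hey1 (SD, n = 2), and the libraries of these genes did not overlap. Hes1 followed at 50.03 ± 21.0 RPKM, again apart from its neighbours. Dll4 at 27.8 RPKM, Hey2 at 25.4, Nrarp at 17.9 and Notch1 at 17.0 overlapped with the next gene in that order down to Notch1. Notch4 stood at 12.7 RPKM, Jag2 at 1.99 and Heyl at 0.643, each apart from the next. The Sl/Sl endothelium had the same ends of the scale, with Jag1 at 160 ± 18 RPKM, Jag2 at 3.75 ± 1.29 and Heyl at 0.0494 ± 0.0699 (SD, n = 2). Between them stood Hey1 at 107 RPKM, Hes1 at 71.0, Hey2 at 30.2, Dll4 at 29.3, Notch1 at 22.8, Nrarp at 15.2 and Notch4 at 13.6, and of these Hey1, Hes1 and Hey2 each overlapped with the gene below, as did Nrarp.

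In clusters Hes1 had the highest mean of the members in both genotypes, although Hey1 exceeded it in replicate 1 of each, by 1.03 times in wild type and 1.31 times in Sl/Sl. The Hes1 mean level was 25.7 ± 5.5 RPKM in wild type and 34.0 ± 4.7 in Sl/Sl clusters (SD, n = 2). In wild type clusters Hey1 followed at 14.6 ± 11.2 RPKM, Jag1 at 11.2 ± 6.5, Notch1 at 8.83 ± 6.14 and Nrarp at 3.32 ± 3.07. Hey2 at 2.52 RPKM, Jag2 at 1.28, Notch4 at 1.05 and Dll4 at 0.845 were lower still, and Heyl had no counts. No neighbours in that list were apart beyond their spread, except Heyl at 0. In Sl/Sl clusters Hes1 was apart from Jag1 at 27.1 ± 0.9 RPKM, and both overlapped with Hey1 at 26.8 ± 18.8, whose libraries spanned 13.5 to 40.1. Below and apart from Hey1 came Dll4 at 6.83 RPKM, Nrarp at 5.38 and Notch1 at 5.32. Heyl at 2.46, which was apart from Notch1 but overlapped with Dll4, Notch4 at 2.25, Jag2 at 1.62 and Hey2 at 0.972 were lowest. These levels are given without a test.

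**Figure D1:**
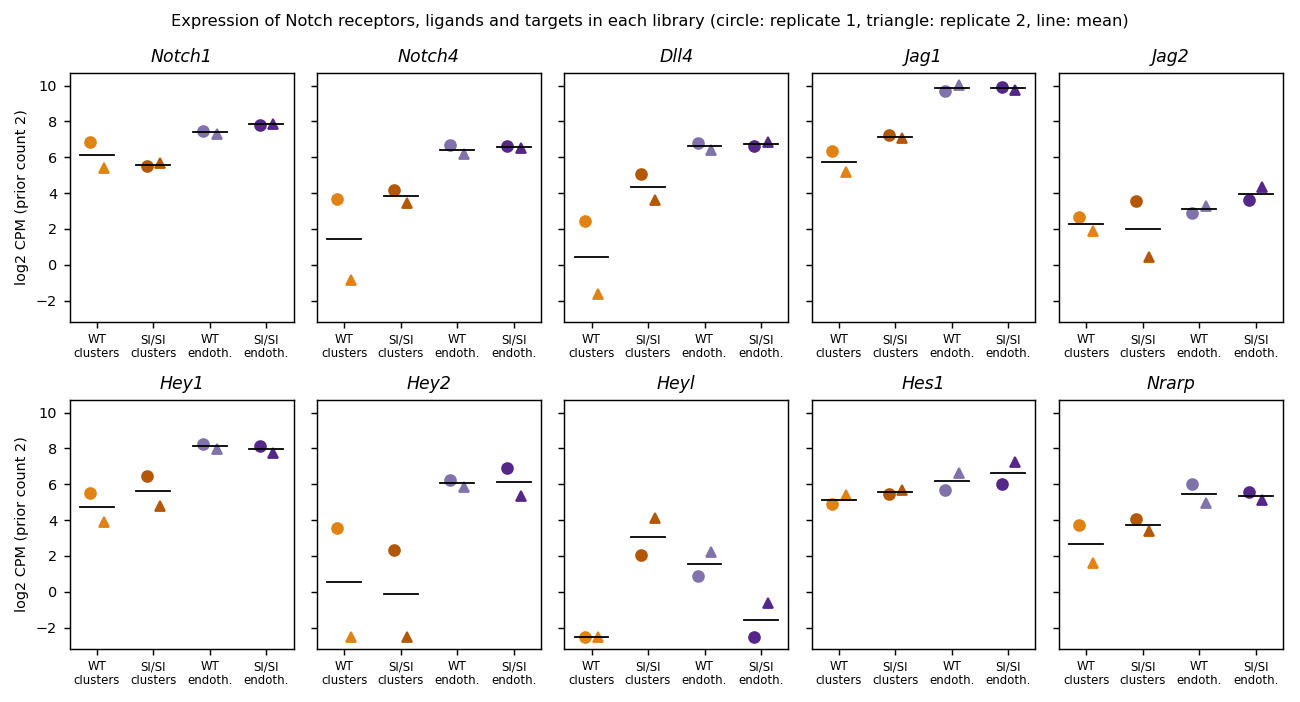
Expression of the 10 genes as log2 CPM (prior count 2) in each library, with wild type and Sl/Sl clusters in orange and endothelium in purple; circles are replicate 1, triangles replicate 2 and lines the mean of the 2 libraries. The 4 endothelium libraries sit above the 4 cluster libraries for every gene except Jag2 and Heyl, and wild type clusters replicate 2 is the lowest library for Notch1, Notch4, Dll4, Jag1, Hey1 and Nrarp.

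Endothelium was then compared with clusters over both genotypes, on CPM (counts made comparable between libraries by their total and a TMM composition factor). Of the 10 genes, 8 passed as higher in endothelium in edgeR's quasi-likelihood test (adjusted p-value under 0.1), and 0 as lower. Over all genes tested, 16.6% passed in either direction and 8.48% passed as higher in endothelium. The 8 were Notch1, Notch4, Dll4, Jag1, Hey1, Hey2, Hes1 and Nrarp, with fitted differences of 1.14 (Hes1) to 4.28 (Hey2) on the log2 scale. For the same 8 genes, all 4 endothelium libraries were above all 4 cluster libraries, as they were for 10.1% of all genes tested. The median difference was 2.38 over the 10 genes and -0.07 over all genes tested. The summed level of 14 endothelial marker genes was 7663 to 8340 CPM in endothelium and 525 to 3512 in clusters, and that of 14 hematopoietic markers 1355 to 1448 and 2177 to 3238. How much of the members' difference follows the share of endothelial RNA in a cluster library was not tested, and in such bulk samples fewer cells with a transcript cannot be told apart from less of it per cell.

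Among the receptors, Notch1 (chr2:26313422-26359342 in mm9, minus strand) is the one needed for arterial hematopoiesis. It was measured at 180, 155, 223 and 233 CPM in the endothelium libraries (wild type replicates 1 and 2, then Sl/Sl replicates 1 and 2) and at 116, 41.6, 44.7 and 52.0 in the cluster libraries in the same order. The highest cluster library was thus wild type replicate 1, and it stayed under every endothelium library. Over both genotypes Notch1 was 3.16-fold higher in endothelium (log2 difference 1.66, SE 0.32, adjusted p = 0.0116).

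Notch4 (chr17:34701240-34725488, plus strand) is a receptor expressed mainly in endothelium. Its levels were 102, 71.5, 99.0 and 90.4 CPM in endothelium. In clusters they were 12.5, 0.389, 17.9 and 10.8 CPM, the second of these from only 5 counts in wild type replicate 2. Endothelium was 9.44-fold higher (log2 3.24, SE 0.78, adjusted p = 0.0302).

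Notch2, a receptor used in blood lineages, went the other way and was 2.79-fold lower in endothelium (log2 -1.48, SE 0.26, adjusted p = 0.00862). It stood at 123.7, 142, 74.8 and 112 CPM in endothelium and at 378, 351, 171 and 357 in clusters. Every cluster library was above every endothelium library, the lowest being Sl/Sl clusters replicate 1. As a share of the summed RPKM of Notch1 to Notch4, Notch2 took 66.6 to 87.2% in the cluster libraries and 15.1 to 30.5% in the endothelium libraries. Notch1 took 11.46 to 24.1% of the sum in clusters and 37.0 to 49.8% in endothelium, and Notch4 0.154 to 11.1% against 24.5 to 32.1%. The sum itself was 24.9 to 54.8 RPKM in clusters and 41.7 to 48.9 in endothelium, so the ranges of the total overlapped while those of the 3 shares did not. Notch2 exceeded Notch1 by 2.95 to 7.61 times in RPKM in clusters, whereas Notch1 exceeded Notch2 by 1.21 to 3.29 times in endothelium.

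**Figure D2:**
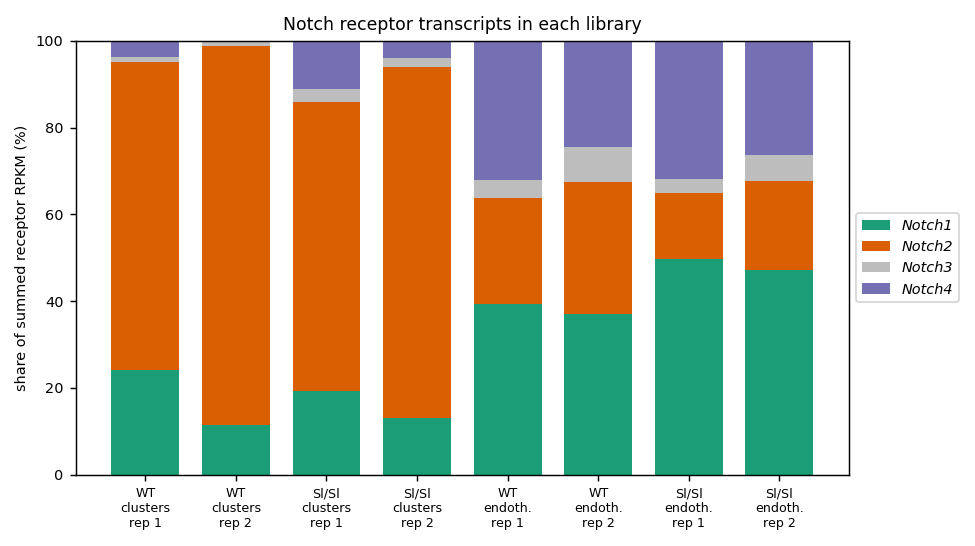
Share (%) of each Notch receptor in the summed RPKM of Notch1, Notch2, Notch3 and Notch4, with 1 stacked bar per library. Notch2 (orange) fills 66.6 to 87.2% of each cluster bar and 15.1 to 30.5% of each endothelium bar, and Notch4 (purple) at least 24.5% of each endothelium bar.

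The ligands were led by Jag1 (chr2:136907187-136942256, minus strand), which binds Notch receptors in the aortic wall and is required for hematopoiesis there. It had 841, 1071, 990 and 863 CPM in endothelium and 80.5, 35.7, 150 and 136 in clusters. No other member had such a gap between libraries of the cell types relative to its spread: the log2 difference was 3.37 with an SE of 0.26, or 10.3-fold (adjusted p = 0.000146). Jag1 made up 67.3 to 87.7% of the summed RPKM of Dll1, Dll3, Dll4, Jag1 and Jag2 in every library of either cell type. That sum was 7.58 to 41.2 RPKM in clusters and 187 to 214 in endothelium.

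Dll4 (chr2:119151520-119161402, plus strand) is the ligand of arterial endothelium and of sprouting vessels. Its levels were 113, 85.3, 98.7 and 114 CPM in endothelium. In clusters they were 5.26, 0.156, 33.5 and 12.3 CPM, or 61, 2, 408 and 176 counts, so the cluster libraries spread far more than the endothelium libraries. The difference over both genotypes was 13.1-fold (log2 3.71, SE 0.77, adjusted p = 0.0163). The Dll4 exons share 217 bases with Gm14207 on the opposite strand. Whether reads were counted by strand is not given in the sources used here, so reads from the shared stretch cannot be told apart.

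Jag2 (chr12:114146801-114167706, minus strand), a second Jagged ligand, was low in every library. Endothelium had 7.31, 9.49, 11.99 and 20.1 CPM and clusters 6.29, 3.50, 11.7 and 1.19. The cell types overlapped, and the log2 difference of 1.05 (SE 0.91) had an adjusted p of 0.519.

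Of the targets, Hey1 (chr3:8663359-8667038, minus strand) encodes a repressor that acts with Hey2 in arterial identity. Its levels were 310, 251, 277 and 218 CPM in endothelium and 46.0, 14.6, 87.0 and 27.9 in clusters, a 6.31-fold difference (log2 2.66, SE 0.45, adjusted p = 0.00668). In each group replicate 1 was above replicate 2.

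Hey2 (chr10:30552165-30562589, minus strand) had 76.6, 56.6, 119 and 41.1 CPM in endothelium. In clusters it was read in the first replicate of each genotype, at 11.8 CPM in wild type and 4.84 in Sl/Sl, and had 0 counts in both second replicates. Its fitted difference was the largest of the members and the least precise of those that passed (log2 4.28, SE 1.41, adjusted p = 0.0900).

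Nrarp (chr2:25036278-25038852, plus strand), a target that feeds back by limiting the activated receptor, had 64.4, 30.5, 47.6 and 34.4 CPM in endothelium and 13.1, 2.88, 16.6 and 10.2 in clusters. Endothelium was 4.27-fold higher (log2 2.09, SE 0.59, adjusted p = 0.0524).

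Hes1 (chr16:30065443-30067882, plus strand), a repressor expressed in many tissues, showed the smallest difference that passed, 2.21-fold (log2 1.14, SE 0.36, adjusted p = 0.0808). It had 52.0, 99.8, 65.6 and 152 CPM in endothelium and 29.4, 42.0, 43.8 and 50.8 in clusters, so the highest cluster library nearly reached the lowest endothelium library. Hes1 made up 41.7 to 81.4% of the summed RPKM of Hes1, Hey1, Hey2 and Heyl in clusters and 17.3 to 47.7% in endothelium, ranges that overlapped. Hey1 made up 18.6 to 54.5% of that sum in clusters and 44.9 to 67.9% in endothelium.

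Heyl (chr4:122910799-122927113, plus strand), known from vascular smooth muscle and other mural cells, did not follow the rest. It had 21, 44, 0 and 4 counts in the endothelium libraries and 0, 0, 48 and 246 in the cluster libraries. The mean was 1.65 CPM in endothelium and 5.28 in clusters, with overlap, while the fitted log2 difference was 1.36 (SE 1.23, adjusted p = 0.545). The fitted value averages the 2 genotypes on the log scale, where the wild type part is set against 0 counts. That part depends on the prior count of edgeR's own fit, left at its default, and not on the 2 used for log2 CPM.

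Notch1, Notch4, Dll4, Jag1 and Hey1 passed in each fit that left out 1 library. Hes1, Hey2 and Nrarp did not pass in each, and Hes1 was lost in most. Hes1 and Nrarp were lost without wild type clusters replicate 2, and Hes1, Hey2 and Nrarp without Sl/Sl clusters replicate 2. Each was also lost in at least 1 fit without an endothelium library. Without wild type clusters replicate 2, the library that stood apart, the log2 difference was 1.35 for Notch1, 2.73 for Notch4, 3.20 for Dll4, 3.10 for Jag1, 2.32 for Hey1 and 3.74 for Hey2. It was 1.25 for Hes1 (adjusted p = 0.106) and 1.70 for Nrarp (adjusted p = 0.107). Without wild type clusters replicate 1 the log2 difference of Notch4 was 5.24, that of Dll4 5.72 and that of Hey2 8.83.

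**Figure D3:**
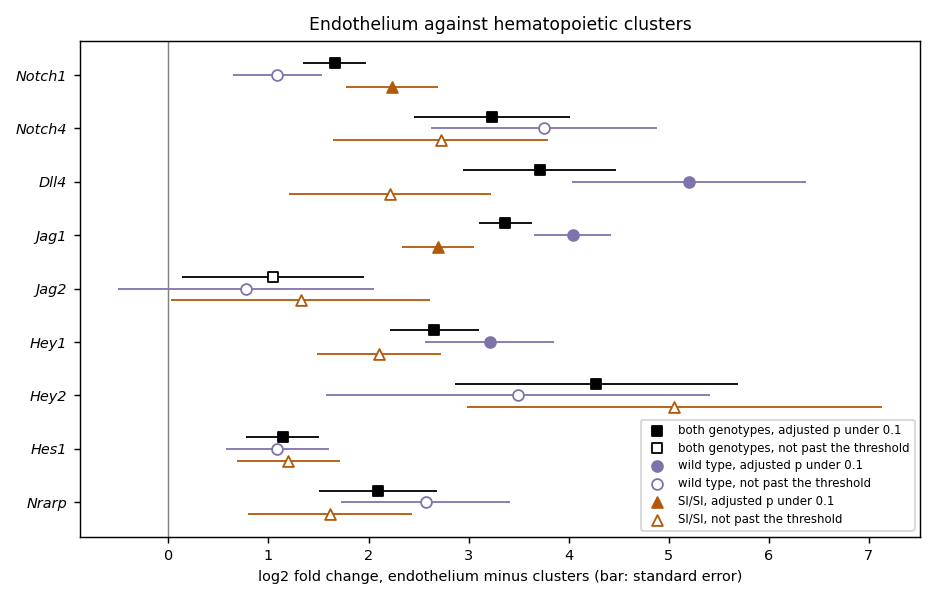
Fitted log2 fold change of endothelium over clusters for 9 of the 10 genes, with bars for the standard error; squares are both genotypes together, circles wild type and triangles Sl/Sl, and filled symbols have an adjusted p-value under 0.1. Heyl is left out because its fitted value rests on libraries with 0 counts. All plotted values lie right of 0, and Jag1 is filled in all 3 fits.

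Within each genotype, where 2 libraries stood against 2, fewer genes passed. In wild type, 3 of the 10 members were higher in endothelium and 0 lower, against 8.24% of all genes in either direction and 4.56% as higher. Jag1 was 16.5-fold higher (log2 4.04, SE 0.38, adjusted p = 0.00143), Dll4 36.8-fold (log2 5.20, SE 1.17, adjusted p = 0.0397) and Hey1 9.25-fold (log2 3.21, SE 0.65, adjusted p = 0.0259). Notch4 had a log2 difference of 3.76 (SE 1.13) with an adjusted p of 0.102, just short of passing. Heyl, with 21 and 44 counts in wild type endothelium and none in wild type clusters, had an adjusted p of 0.176. Without wild type clusters replicate 1, 7 members passed in this comparison, and without replicate 2 there were 4. In the latter fit the log2 difference was 4.203 for Dll4, 2.57 for Hey1, 3.54 for Jag1 and 2.76 for Notch4.

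In Sl/Sl, 2 members were higher in endothelium and 0 lower, against 2.83% of all genes in either direction and 0.985% as higher. These were Notch1 at 4.70-fold (log2 2.23, SE 0.46, adjusted p = 0.0494) and Jag1 at 6.48-fold (log2 2.70, SE 0.36, adjusted p = 0.00956). For Dll4 the log2 difference was 2.22 (SE 1.01, adjusted p = 0.358) and for Hey1 2.11 (SE 0.62, adjusted p = 0.157). Without Sl/Sl clusters replicate 1, Jag1 and Hey1 passed, and without replicate 2 Jag1 alone. Leaving out either wild type cluster library also changed which members passed here, although no Sl/Sl library was removed. The gene filter, the scaling and the spread shared across genes were all fitted again, and their parts were not tested. That a gene passed in wild type and not in Sl/Sl, or the reverse, does not show that the genotypes differ, which the interaction below addresses.

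Sl/Sl clusters were compared with wild type clusters to see whether the pathway moved with the loss of Kit ligand. In edgeR's quasi-likelihood test 0 of the 10 members passed, as did 0 of all 13908 genes (0%). At an unadjusted p-value under 0.05 there were 587 genes, 3 of them members, and the smallest adjusted p-value of any gene was 0.109. DESeq2 called 175 genes, among them Dll4, Jag1 and Heyl. Of the members, 8 had fitted values above 0, against 51.9% of all genes, and the median was 0.83 against 0.03. An exact permutation test of 2 libraries against 2 cannot go below p = 0.333, so the test rests on the spread shared across genes.

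Jag1, Dll4 and Heyl were the 3 members with an unadjusted p-value under 0.05. Jag1 counts were 934 and 459 for the wild type and 1824 and 1953 for the Sl/Sl libraries, and CPM did not overlap either. The log2 difference was 1.30 (SE 0.35, unadjusted p = 0.00423, adjusted p = 0.661). Counts of Dll4 were 61 and 2 against 408 and 176, a log2 difference of 3.08 (SE 1.07, unadjusted p = 0.0176, adjusted p = 1). Heyl had 0 counts in both wild type libraries and 48 and 246 in Sl/Sl, which is at least 42.9-fold higher when 3 counts are taken as the floor of each wild type library (unadjusted p = 0.0122, adjusted p = 0.972). The same bound was 16-fold from Sl/Sl clusters replicate 1 alone and 69.8-fold from replicate 2 alone. Both Sl/Sl cluster libraries were above both wild type libraries for these 3 genes and for Hes1, or 4 members, as they were for 16.4% of all genes tested. The reverse order held for 0 members and for 16.3% of all genes.

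The other members overlapped between genotypes in clusters or had fitted values under their spread. Notch1 had a log2 difference of -0.70 (SE 0.44), Notch4 1.16 (SE 1.04), Hey1 0.92 (SE 0.60), Nrarp 0.74 (SE 0.81), Hes1 0.41 (SE 0.51), Jag2 0.39 (SE 1.27) and Hey2 -1.29 (SE 1.82), each with an adjusted p of 1. The fitted values hung on single libraries. Without wild type clusters replicate 2, Dll4 was at 2.11, Jag1 at 0.82, Notch4 at 0.19 and Nrarp at 0.02, with 0 members past the threshold. Without wild type clusters replicate 1, the libraries gave 7.11 for Dll4, 2.00 for Jag1, 5.17 for Notch4 and 2.21 for Nrarp, and Dll4, Jag1 and Notch4 passed. Notch1 then turned to 0.22. Without Sl/Sl clusters replicate 1 Hey1 was at -0.11 and Jag2 at -2.03.

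The summed endothelial markers moved with the cluster libraries, at 1521 and 525 CPM for wild type against 3512 and 956 for Sl/Sl, so that replicate 2 was the lower library in each genotype, as it was for Dll4, Hey1, Notch4 and Nrarp. Their part in the genotype differences was not tested. Levels were also expressed against Cdh5, the endothelial gene of the sort. Dll4 stood at 18.4 to 23.5% of the Cdh5 RPKM in the 4 endothelium libraries. In wild type clusters it was 2.78 and 1.5%, and in Sl/Sl clusters 25.9 and 30.9%. Relative to Cdh5, both Sl/Sl cluster libraries were thus above the endothelium libraries and both wild type ones below them. Notch4 was at 9.44 to 9.72% of Cdh5 in endothelium, with 3.46 and 1.96% for wild type clusters against 7.24 and 14.2% for those of Sl/Sl. Jag1 did not separate the genotypes on this scale, with 26.8 and 216% for wild type clusters, 72.8 and 215% for those of Sl/Sl, and 93.2 to 172% in endothelium. Hey1 stood at 38.1 and 219.5% for wild type clusters and at 105 and 110% for Sl/Sl. These ratios are given without a test, and the 154 Cdh5 counts in wild type clusters replicate 2 stretch those of that library.

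The 12 mesenchymal and mural markers summed to 5050 CPM in Sl/Sl clusters replicate 2, the library with 246 Heyl counts, and to 74.7 CPM in Sl/Sl clusters replicate 1, which had 48. The other libraries had 254 to 1740 CPM, and from 11 to 12 of the 12 markers were detected in each, with Pdgfrb or Cspg4 at 0 in 6 of the 8. The 9 macrophage markers summed to 129 to 296 CPM in clusters and 3.85 to 17.0 in endothelium. Of the 11 erythroid markers 6 or 7 were detected, at 24.4 to 266 CPM in all, and the adult globins Hba-a1, Hba-a2, Hbb-b1 and Hbb-b2 were at 0 in every library. The part of these markers in the Heyl values was not tested.

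**Figure D4:**
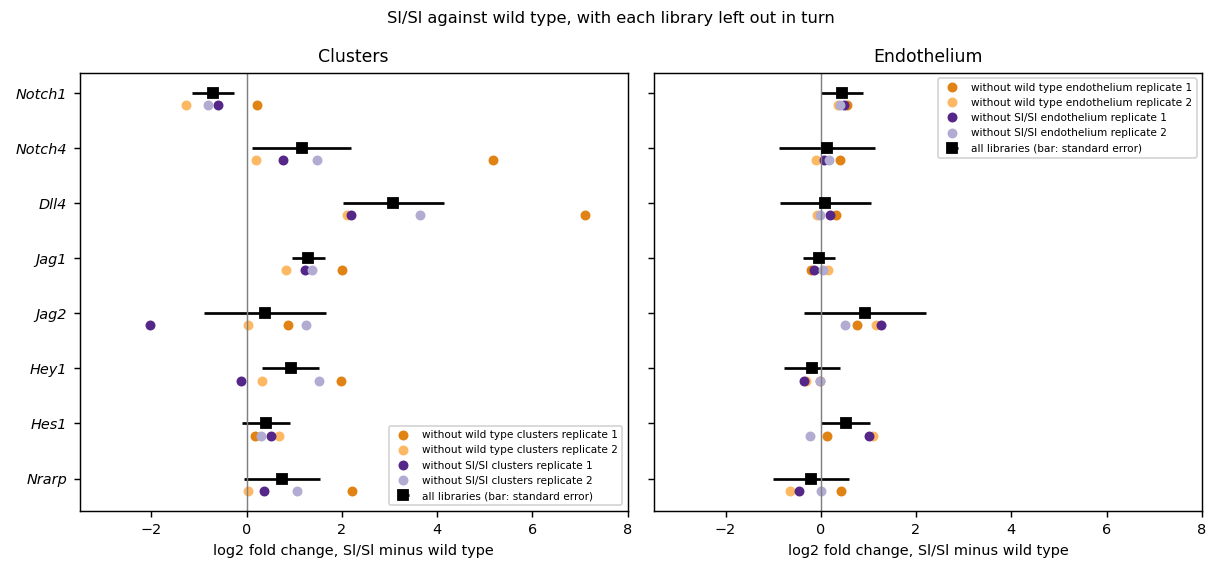
Fitted log2 fold change of Sl/Sl over wild type in clusters (left) and endothelium (right) for 8 genes, with black squares and standard error bars for all libraries and coloured points for fits without 1 library; Hey2 and Heyl are left out because their values rest on libraries with 0 counts. In clusters the Dll4 points run from 2.11 to 7.11 and those of Jag1 from 0.82 to 2.00, whereas all points in endothelium stay within 1.27 of 0.

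In endothelium the genotypes gave close values for most members. Again 0 of the 10 and 0 of 13908 genes (0%) passed in edgeR's test, and 580 genes but no member had an unadjusted p-value under 0.05. DESeq2 called 178 genes and 0 members. The median of the members was 0.11, against -0.00141 for all genes. Jag1 was counted 10586 and 10601 times without the deletion and 11315 and 7249 times with it, a log2 difference of -0.04 (SE 0.34). For Dll4 the value was 0.10 (SE 0.96), for Notch4 0.12 (SE 1.01), for Hey1 -0.18 (SE 0.59), for Nrarp -0.21 (SE 0.80) and for Hey2 0.27 (SE 1.73). Notch1 had 0.44 (SE 0.44), Hes1 0.52 (SE 0.51) and Jag2 0.93 (SE 1.28). The adjusted p was 1 for every member. With standard errors of this size, log2 differences near 1 were not detectable for most of them. Both Sl/Sl libraries were above both wild type libraries for Notch1 and Jag2, as for 13.5% of all genes, and below them for Heyl, as for 14.9%. The Heyl counts were 21 and 44 against 0 and 4.

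The genotype effect was compared between the cell types as an interaction, the Sl/Sl effect in clusters minus that in endothelium. None of the members passed, nor did any of 13908 genes (0%), with 736 genes and 2 members at an unadjusted p-value under 0.05 in edgeR's test. DESeq2 called 175 genes and 1 member, Heyl. The 2 were Jag1, with a log2 value of 1.34 (SE 0.48, unadjusted p = 0.0204, adjusted p = 0.902), and Heyl (unadjusted p = 0.00733, adjusted p = 0.902), whose fitted size rests on 0 counts. Dll4 had 2.99 (SE 1.42, unadjusted p = 0.0634) and Notch1 -1.15 (SE 0.62, unadjusted p = 0.0965). The median was 0.995 over the members and 0.10 over all genes. Without wild type clusters replicate 1, Dll4 passed. Without replicate 2 its value was 2.02 and that of Jag1 0.87.

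The wider pathway was read from 44 further genes, of which 35 were tested. The 9 that had too few counts included Dll3, Rbpjl and Dtx1. Over both genotypes, 5 of the 35 were higher in endothelium and 4 lower, and their median log2 difference was 0.13. Of all genes tested, 16.6% passed in either direction and 8.48% as higher, with a median of -0.07. Of the 2 other ligands tested, Dll1 was higher (log2 3.65, SE 1.18, adjusted p = 0.0855). It had 28, 0, 29 and 31 counts in clusters and 285, 100, 446 and 119 in endothelium. Of the other receptors, Notch3, which is typical of mural cells, had a log2 difference of 1.95 (SE 0.66, adjusted p = 0.0959), at 12.2 to 28.3 CPM in endothelium and 3.50 to 6.91 in clusters. That call was lost with no filter on low counts (adjusted p = 0.158), with the replicate number as a block (adjusted p = 0.148) and in each of the 8 fits that left out 1 library.

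In the nuclear complex, 1 of 8 genes tested passed, a share near the 16.6% of all genes. Maml2, a Mastermind co-activator, was higher in endothelium (log2 1.20, SE 0.26, adjusted p = 0.0203). It had 394 and 403 counts in wild type clusters and 1347 and 1038 in Sl/Sl clusters, a log2 difference between genotypes of 1.49 (SE 0.37, adjusted p = 0.548). Rbpj, the DNA-binding partner of the receptors, had a log2 difference of -0.14 between cell types (SE 0.44, adjusted p = 0.893). None of the 12 trafficking and turnover genes tested passed in edgeR, and their median was -0.25. At an unadjusted p under 0.05 in edgeR's test there were 2 of them, against 3695 of all 13908 genes.

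Among 9 further genes described as targets that were tested, Efnb2 and Sox17 were higher in endothelium and Cd44 and Gata2 lower. Efnb2, the arterial ephrin, was 6.47-fold higher (log2 2.69, SE 0.29, adjusted p = 0.000778), at 630 to 842 CPM in endothelium and 46.1 to 217 in clusters. Sox17, an arterial transcription factor, was 7.65-fold higher (log2 2.94, SE 0.81, adjusted p = 0.0490). Gata2, needed for stem cell emergence, had a log2 difference of -0.94 (SE 0.28, adjusted p = 0.0618), and Cd44, an adhesion receptor on blood cells, -1.02 (SE 0.24, adjusted p = 0.0289). Hes6, of the 2 further Hes genes tested, was lower as well (log2 -1.44, SE 0.31, adjusted p = 0.0204). In wild type alone, Efnb2 and Maml2 passed as higher and Hes6, Cd44, Notch2 and Gata2 as lower. In Sl/Sl alone, Efnb2 passed as higher and Notch2 as lower (adjusted p = 0.0999). Between genotypes 0 of the 35 passed in edgeR's test in either cell type. At an unadjusted p-value under 0.05 there were 4 in clusters and 2 in endothelium, against 587 and 580 of all 13908 genes. DESeq2 called 2 of them in clusters, Maml2 and Acta2, and 0 in endothelium. Of the 8 fits over both genotypes that left out 1 library, Gata2 passed in 1, Dll1 in 4 and Sox17 in 7, lost without Sl/Sl clusters replicate 2 (adjusted p = 0.101).

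For the members other than Jag2, the 2 genes with the nearest pattern are given, found by the root mean square difference of centred log2 CPM over the 8 libraries. Notch1 was nearest to Vash1 (0.173) and Myo10 (0.243), and Notch4 to Ushbp1 (0.258) and Col4a1 (0.260). Ushbp1 had 80, 1, 95 and 70 counts in clusters, low in wild type replicate 2 as Notch4 was. Dll4 was nearest to Tinagl1 (0.373) and Tll1 (0.515), and Jag1 to Eva1a (0.307) and Nrp2 (0.322). Tinagl1 had 60 and 0 counts in wild type clusters and 256 and 118 in Sl/Sl clusters. Hey1 was nearest to Ecscr (0.240), an endothelial marker, and She (0.247), Nrarp to Mmp2 (0.187) and Map4k3 (0.232), and Hes1 to Cpeb4 (0.250) and Gm14295 (0.256). Hey2 and Heyl lay furthest from their nearest genes, Enpp3 (0.763) and Pdzd2 (0.780) for Hey2 and Hmgcll1 (0.986) and Zfp811 (1.00) for Heyl. The difference is not scaled to a member's own spread, a log2 SD of 3.81 for Hey2, 2.58 for Heyl and 0.752 for Hes1. Within the members the closest pair was Hey1 and Nrarp (0.463), followed by Jag1 and Hey1 (0.540) and Notch4 and Dll4 (0.625).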

How the data were processed

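RNA-Seq counts were analysed from 8 libraries in 4 groups of 2, grouped by the sample labels. The authors made SMARTSEQ2 libraries, aligned read pairs to mm9 with STAR 2.4.2a, merged lanes and counted reads per gene with featureCounts (Subread 1.4.5). Their own normalization and tests used DESeq2 1.12.4. The deposited table holds raw counts, not normalized, with the exon coordinates and exon length of each gene. The annotation, the strand setting and the handling of reads with several matches are not given in the sources used here, nor is the sorting experiment of each library, so no comparison within a sort was possible. Replicates were compared before averaging, and their counts correlated at a Spearman rho of 0.917 to 0.923 across genes.

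All 8 libraries were fitted together in R 4.3.3 with edgeR 4.0.16 (limma 3.58.1): TMM scaling, filterByExpr on the 4 groups, 4 group means and the quasi-likelihood test, adjusted by Benjamini-Hochberg over 13908 genes. Genes passed at an adjusted p-value under 0.1. The SE of a log2 difference was its size over the root of the F statistic. The common dispersion was 0.667. CPM used TMM-scaled totals, RPKM plain totals and the deposited exon length, and log2 CPM a prior count of 2. For the lower bound on the Heyl fold difference in clusters, each wild type library at 0 counts was given a floor of 3 counts. The fits, CPM and RPKM used counts of 0 as they were. The code was tested on simulated counts.

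The members and gene lists were chosen with earlier results of these data known. Named were the 10 members, Notch2, Rbpj, other pathway genes that passed in any of 6 comparisons, the 2 genes nearest each member in pattern (those of Jag2 are not reported here), and Kitl, Kit, Cdh5, Ptprc and Itga2b. Acta2 and the 3 genes named as having too few counts were chosen after their values were seen. The study sorted single or pooled embryos of each genotype more than once, prepared the libraries as duplicates and calls them biological replicates. The labels do not tie a library to its embryos or sort, so p-values measure the spread between these samples, which may in part be technical. Alternatives were an adjusted p-value under 0.05, DESeq2 1.42.0, RLE size factors, keeping every gene with at least 1 count, keeping genes with at least 10 counts in all libraries, a block for the replicate number, TMM-scaled totals for RPKM, and fits without each library. Promoter letters came from RefSeq, whose build differs from mm9, and coordinates were not carried between builds.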

Additional observations from a re-analysis of the deposited data

Results flagged for a closer look

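Heyl was the member whose genotypes did not overlap in either cell type and stood in opposite order in them. Both Sl/Sl libraries were above both wild type ones in clusters for 16.4% of all genes tested, and below them in endothelium for 14.9%. The share of genes with both orders was not counted. Hmgcll1 and Zfp811, the genes nearest to Heyl in pattern, had both orders too, so they are not particular to Heyl. For Heyl both Sl/Sl cluster libraries, with 48 and 246 counts, were above both wild type cluster libraries, which had 0. Both Sl/Sl endothelium libraries, with 0 and 4 counts, were below both wild type endothelium libraries, with 21 and 44. The Heyl interaction of genotype and cell type in edgeR's quasi-likelihood test had an unadjusted p of 0.007326. It did not pass after adjustment over all genes (adjusted p = 0.902), whereas DESeq2 called it. The mesenchymal and mural markers were highest, at 5050 CPM, in the library with 246 Heyl counts and lowest, at 74.7 CPM, in that with 48, and their part in the difference was not tested.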

How the results depend on the processing

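Over both genotypes the 8 members of endothelium against clusters stayed at 8 with RLE size factors, no filter or the replicate block. With DESeq2 there were 7, without Hey2. The count was 5 at an adjusted p-value under 0.05 and 5 of the 6 members left with at least 10 counts in every library, and 5 to 7 when each library was left out. In wild type (3 members) it was 6 with DESeq2, 7 with no filter, 5 with the replicate block and 3 to 7 without a library. In Sl/Sl (2 members) it was 5 with DESeq2 and 6 with no filter. Of the 5, 4 were higher in endothelium and Heyl was lower, whereas in wild type DESeq2 called Heyl as higher in endothelium. Between genotypes in clusters (0 members), DESeq2 called 3 (Dll4, Jag1, Heyl), no filter 2 (Dll4, Jag1) and fits without a library 0 to 3. In endothelium every alternative gave 0. Such ranges without a library cover only fits that left out a library of the groups compared. In the interaction DESeq2 called 1 (Heyl), no filter 2 (Dll4, Jag1), and fits without a library 0 to 1.

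Counts over all genes moved as follows. Ranges without a library, here and below, cover only fits that left out a library of the groups compared. The 2310 of both genotypes were 1488 at 0.05, 3614 with DESeq2 and 1563 to 2087 without a library. The 1146 of wild type were 657, 2613 and 592 to 1015, and 1990 with no filter. The 393 of Sl/Sl were 222, 1631 and 182 to 402, and 1266 with no filter. Between genotypes in clusters the 0 became 175 with DESeq2, 253 with no filter, 9 with at least 10 counts, 8 with the replicate block and 6 to 76 without a library. In endothelium it became 178 with DESeq2 and 65 with no filter, and stayed at 0 without a library. The interaction gave 175 with DESeq2, 179 with no filter and 0 to 27 without a library. The cause was not tested.

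Fitted log2 values that changed sign, none of them past the threshold, were these. Without each library in turn, Heyl ran from -0.90 to 2.05 over both genotypes. In clusters between genotypes, Notch1 ran from -1.27 to 0.22, Jag2 from -2.03 to 1.25, Hey1 from -0.11 to 1.98 and Hey2, fitted against 0 counts, from -9.09 to 7.81. In endothelium Notch4 ran from -0.10 to 0.41, Dll4 from -0.074 to 0.32, Jag1 from -0.21 to 0.16, Hey2 from -0.69 to 0.83, Hes1 from -0.22 to 1.09 and Nrarp from -0.64 to 0.43, and Hey2 was -0.26 with the replicate block. In the interaction Jag2 ran from -2.97 to 0.32, Hey2 from -9.36 to 7.55 and Hes1 from -0.66 to 0.65. Libraries of the same number shared only that number in the labels. Their deviations correlated at -0.11 to 0.16 between groups. With so few libraries, these values cannot show whether the block stands for a pairing. With 2 libraries a group, depth and spread limit what can be seen of Heyl, Jag2 and Hey2.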

Other observations

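Replicate 1 was above replicate 2 in each of the 4 groups for Notch4, Hey1, Hey2 and Nrarp, as it was for 6.10% of all genes tested. The reverse order held in each group for Hes1, as for 5.10% of all genes. The labels do not say whether libraries of the same number were sorted together.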
